A study of Mus musculus with 6 samples.

Results

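Nuclear receptors are transcription factors whose activity is set by small fat-soluble molecules, among them retinoic acid, vitamin D, thyroid hormone, oxysterols and sex steroids. Most bind DNA as pairs at repeats of a short half-site, often with a retinoid X receptor (RXR) as the partner, and they recruit corepressors without ligand and coactivators with it. In bone, vitamin D, thyroid hormone, retinoids and estrogen all act on osteoblasts through receptors of this family. The 37 genes described here are 30 nuclear receptors and 7 coregulators taken from the expression table by symbol. Of these, 34 had a row among its 29616 genes, and the expression of Rxrg, Nr0b1 and Nr0b2 was not analysed here. Rxrg and Nr0b1 still count among the members whose promoter windows held a half-site.

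The data were RNA sequencing libraries of bone cells from C57BL/6 mice (C57BL/6J in the study's methods), 3 from controls and 3 from mice treated with dexamethasone, a synthetic glucocorticoid that acts through another member of the family, the glucocorticoid receptor Nr3c1. The treated mice received a daily dose of 0.08 µg/g over 4 weeks, starting at 8 weeks of age, and the controls were littermates. The study names saline as the control for bone imaging of the same model and calls the controls of PCR on such cells untreated, and which of these the sequenced controls were is not given in the sources used here. The study describes the cells as Osteocalcin-positive and as sorted from bones after the marrow was removed. The labels name the libraries biological replicates without saying whether each came from 1 mouse or from a pool, so p-values measure the spread between these libraries.

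The libraries held between 72596611 and 89910728 reads in genes. Values are normalized counts, which are reads divided by a size factor for each library. Of the osteoblast markers, 7 of 8 were lower with dexamethasone and Spp1 was higher. Bglap, which encodes Osteocalcin, the protein of the sort, had 107, 104 and 139 reads in the controls and 10, 11 and 13 with dexamethasone. The related marker Bglap2 had more, with 369, 340 and 341 reads in the controls and 31, 28 and 29 with dexamethasone. The summed level of 3 osteocyte markers was 229 to 254 normalized counts in the controls and 5613 to 6276 with dexamethasone. Most of the rise was Dmp1, with 45, 39 and 41 reads in the controls and 6270, 5142 and 4585 with dexamethasone. Its log2 fold change was 7.16, Phex rose at 0.60 and Mepe did not pass the test. Of 4 macrophage markers, Cd68 and Cd14 rose with log2 fold changes of 1.78 and 1.21. Lyz2 fell to 35.2% of control and Csf1r to 61.5%. All 8 proliferation markers were higher, and their summed level was 36030 to 38652 normalized counts in the controls and 223551 to 236024 with dexamethasone. The summed level of 5 smooth muscle and pericyte markers was 148034 to 155890 and 21845 to 23278, most of it Acta2, which fell, as did Myh11, while Cspg4 rose with a log2 fold change of 0.43 and Rgs5 was at 0.72 (adjusted p = 0.0511, limma). That of 5 chondrocyte markers was 5954 to 6412 and 22116 to 24970, through Sox9 and Col2a1, which rose, while Comp fell with a log2 fold change of -1.23 and Acan and Col10a1 were too low to be tested. That of 5 pan-hematopoietic markers was 92.3 to 129 and 775 to 823, through Cd53 and Itgb2, which rose, while Laptm5 and Coro1a fell with log2 fold changes of -1.49 and -1.77 and Ptprc had 5 reads or fewer in every library. That of the 5 endothelial markers with values was 363 to 398 and 433 to 475, with Cdh5 and Tie1 at no more than 3 reads in every library. Most of it was Kdr, with means of 348 and 414 and a log2 fold change of 0.25 (adjusted p = 0.00812, limma). Pecam1 was at 0.74 (adjusted p = 0.0419, limma), and Tek, at -0.75, did not pass the test. Over the alternatives the adjusted p of Kdr and Pecam1 reached 0.124 and 0.208. The part of these differences in the results on the receptors was not tested, and in such mixed RNA fewer cells of a type and less RNA per cell cannot be told apart.

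**Figure D1:**
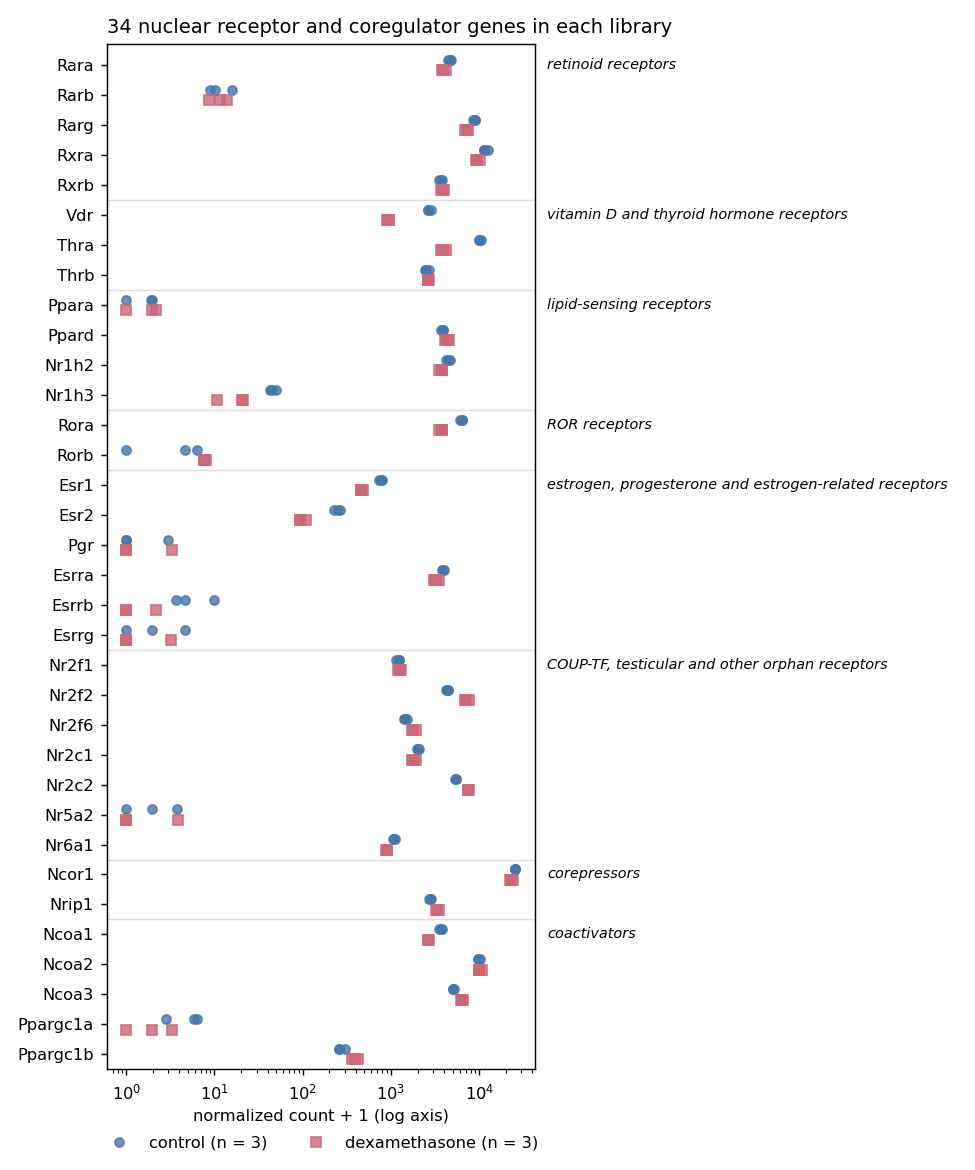
Normalized counts plus 1 (log axis) of the 34 receptor and coregulator genes in each of the 3 control libraries (circles) and 3 dexamethasone libraries (squares), grouped by role. The Vdr, Thra, Nr1h3 and Esr2 squares lie to the left of their circles, and 7 genes have too few reads to be tested.

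Among the 27 genes that could be tested, 4 receptors were called lower with dexamethasone, the vitamin D receptor Vdr, the thyroid hormone receptor Thra, the oxysterol receptor Nr1h3 and the estrogen receptor Esr2. A call required an adjusted p under 0.05 in limma and a change of at least 2-fold. Their levels with dexamethasone were between 34.6% of control for Vdr and 39.4% for Esr2. None of the 27 was called higher by limma, edgeR or DESeq2, while 7 were higher at an unadjusted p under 0.05. The 4 calls were 14.8% of the tested members, against 22.3% of all 17442 tested genes called, made up of 10.6% lower and 11.7% higher, so the share of members called was not above the background. Where the words rose and fell are used below 2-fold, they refer to an adjusted p under 0.05 alone. By that measure 22 members differed, 15 lower and 7 higher, which was 81.5% of the members against 72.5% of all tested genes, 35.2% lower and 37.2% higher. The values of the groups did not overlap for 22 members, or 81.5%, against 74.7% of all tested genes.

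Most members differed by less than 2-fold. The median log2 fold change was -0.16 over the 27 members and 0.00 over all tested genes. The median absolute log2 fold change was 0.28 in the members and 0.45 in all tested genes. Among the 12021 genes whose mean reached 100 normalized counts, which held 25 of the 27 members, it was 0.39, and it was 0.28 in those 25 members. Of the 21 receptors tested, 13 fell and 4 rose. Of the 6 coregulators tested, 2 fell and 3 rose, and none reached 2-fold. Scaling the libraries to the same total in place of the authors' size factors moved the median of all genes to -0.11 on the log2 scale, so that the sign of differences of this size depends on the scaling.

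**Figure D2:**
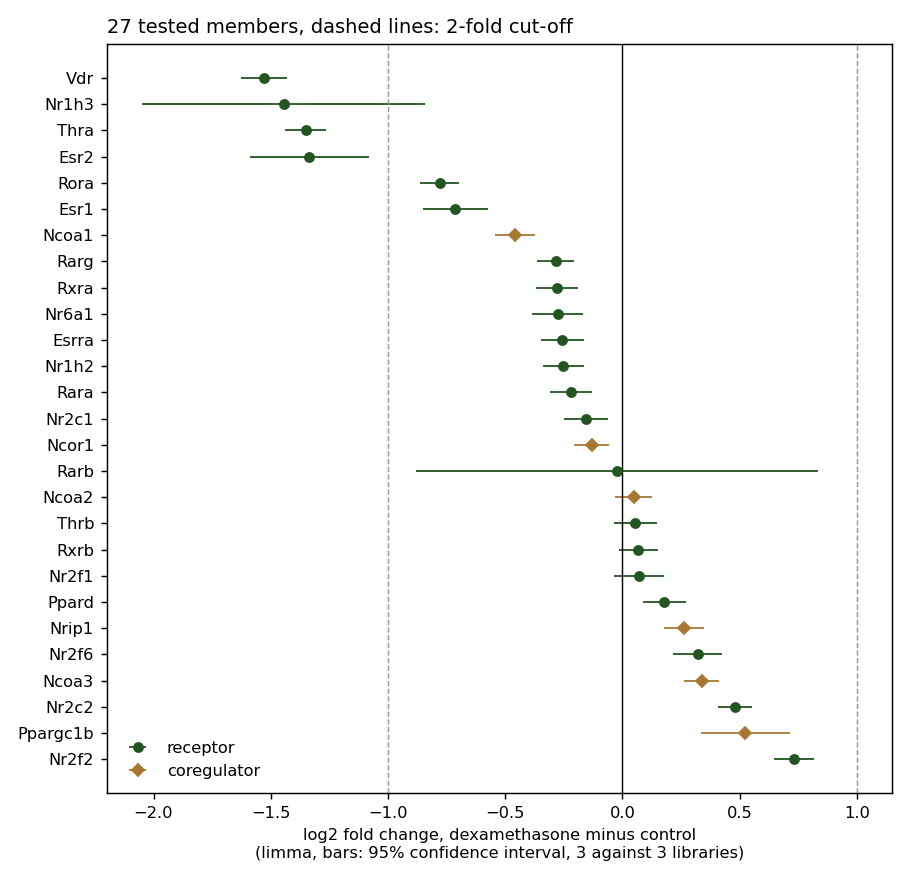
Log2 fold change (dexamethasone minus control) of the 27 tested members from limma, ordered by value, with bars for the 95% confidence interval and dashed lines at a 2-fold change. The points of Vdr, Nr1h3, Thra and Esr2 lie left of the dashed line at -1, no point lies right of the line at 1, and the highest is Nr2f2 at 0.73.

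Vdr, the receptor for the active form of vitamin D, which in osteoblasts controls genes of mineral handling and bone matrix, had the lowest log2 fold change of the 27 members in the limma fit, although the interval of Nr1h3 spans it. In normalized counts, and in the order of the replicate numbers that is kept for all genes, Vdr held 2644, 2810.3 and 2628 in the controls and 947, 911 and 941 with dexamethasone. Every dexamethasone library was below every control library. The log2 fold change was -1.53 (95% confidence interval -1.63 to -1.43, adjusted p = 1.68e-19, limma), a 2.89-fold lower level. Levels per length are reads per kilobase of exon scaled to the reads in genes of the library (RPKM). The exon length joins all annotated exons of a gene, so which gene ranks above another depends on it. On the RPKM scale Vdr stood at 6.13 ± 0.135 (SD, n = 3) in the controls and 1.96 ± 0.00917 (SD, n = 3) with dexamethasone, rank 15 and rank 21 of the 34 members. The stretch of mouse chromosome 15 just before the Vdr start in RefSeq (GRCm38.p6, chr15:97908311-97908546, minus strand) is shown because Vdr moved most and because it holds a receptor half-site. The capitals mark that half-site, AGTTCA read on the other strand, whose first base is at position -91 from the start.

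Vdr: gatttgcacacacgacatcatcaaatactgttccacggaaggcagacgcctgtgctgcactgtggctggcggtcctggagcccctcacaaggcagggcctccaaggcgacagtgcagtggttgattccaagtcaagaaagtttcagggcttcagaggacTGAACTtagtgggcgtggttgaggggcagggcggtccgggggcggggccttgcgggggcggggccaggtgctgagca

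A half-site of this kind was no rarity, since AGTTCA stood on either strand in 11.8% of 32851 promoter windows of 250 bases before a gene start. It stood in 7 of the 33 members that had such a window, and AGGTCA in 7 of the 33 as well, against 14% of all windows. Members were counted as genes and the background as single windows, so these shares do not have the same unit. No member window held AGAACA and TGTTCT with 3 bases between them, the palindrome known for glucocorticoid receptor binding, which stood in 3 of the 32851 windows. These are matches of letters and not binding sites.

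Of 9 other genes of vitamin D handling 7 had values and 4 were tested, of which 3 fell and 1 of them was called. Cyp27a1, an enzyme that hydroxylates vitamin D and bile acid precursors, held 55.1, 66.5 and 54.5 normalized counts in the controls and 24.8, 27.3 and 30.2 with dexamethasone, without overlap. Its log2 fold change was -1.07 (adjusted p = 0.000134, limma), and it went under 2-fold in 3 alternatives, at -0.97 with a pseudocount of 5, -0.97 with quantile normalization and -0.98 without control replicate 2. Cyp27b1, the enzyme that makes the active hormone, fell without reaching 2-fold, with a log2 fold change of -0.68, as did Cubn, a receptor for uptake of the vitamin D carrier, at -0.92. With libraries scaled to the same total Cubn passed 2-fold, at -1.04. The fourth gene tested, Lrp2, a partner of Cubn in that uptake, was at -0.41 on the log2 scale (95% confidence interval -1.02 to 0.21, adjusted p = 0.224, limma) with overlapping groups. Cyp24a1, which breaks the hormone down and is a textbook target of Vdr, had only 3, 6 and 8 reads in the controls and 8, 9 and 4 with dexamethasone, too few to be tested.

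Thra, the main thyroid hormone receptor of bone, fell to 39.3% of its control level. The control libraries held 9831, 10356 and 9918 normalized counts and the dexamethasone libraries 4240.1, 3852 and 3728, so that the groups were far apart. The log2 fold change was -1.35 (95% confidence interval -1.44 to -1.26, adjusted p = 2.23e-19, limma). On the RPKM scale Thra had the highest level of all 34 members in the controls at 28.0 ± 0.284 (SD, n = 3), although Rxra at 27.5 ± 1.17 and Rarg at 26.7 ± 0.427 lay close to it, and it was the seventh with dexamethasone at 10.1 ± 0.572. Its 3' end overlaps Nr1d1, a circadian repressor on the opposite strand, over 5.7% of its exon bases in the GENCODE M21 annotation, and the strand setting of the authors' count is not given in the sources used here. Nr1d1 itself moved the other way, with a log2 fold change of 0.40 (adjusted p = 2.24e-09, limma).

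Thrb, the second thyroid hormone receptor, held 2427, 2720.2 and 2492 normalized counts in the controls and 2662, 2599 and 2673 with dexamethasone. The groups overlapped, and the log2 fold change of 0.06 had a 95% confidence interval of -0.04 to 0.15, which lies apart from that of Thra. The sign turned to -0.06 with libraries scaled to the same total and -0.10 with quantile normalization, and without control replicate 2 it was 0.10 (adjusted p = 0.0475, limma, in a range from 0.0241 to 0.704 over the alternatives). Within each library the RPKM of Thra was 6.50, 6.11 and 6.39 times that of Thrb in the controls and 2.56, 2.38 and 2.24 times with dexamethasone. The mean ratio thus went from 6.33 ± 0.201 to 2.39 ± 0.159 (SD, n = 3), with no overlap. An exact permutation test of 3 against 3 libraries, 2-sided, cannot go below p = 0.1, which it gave here (adjusted p = 0.114 over the 8 pairs of related members compared, which were chosen after their values were seen).

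Of 10 genes of thyroid hormone handling and response 3 were tested, and 2 rose and 1 fell. Klf9, a thyroid hormone target that glucocorticoids are also known to induce, held 3575, 3633 and 3658 normalized counts in the controls and 5924, 5617 and 5641 with dexamethasone, a log2 fold change of 0.66 (adjusted p = 4.03e-14, limma). Hr, which encodes the corepressor hairless, held 166, 165 and 139 in the controls and 359.6, 262 and 281 with dexamethasone, at 0.93 on the log2 scale (adjusted p = 2.02e-07, limma). Klf9 and Hr rose in the libraries in which Thra was low, and neither reached 2-fold. Without dexamethasone replicate 2 Hr passed that limit, at 1.02 on the log2 scale. The gene that fell, Dio3, had 99, 68 and 80 reads in the controls and 50, 36 and 51 with dexamethasone. Its log2 fold change was -0.63 (adjusted p = 0.00667, limma, and up to 0.0554 over the alternatives).

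The retinoid receptors fell little or not at all. Of the 5 with values, Rara, Rarg and Rxra fell by less than 2-fold, and Rarb and Rxrb did not pass the test. Rarg, the main retinoic acid receptor of skeletal tissue, held 8552, 8969 and 8978 normalized counts in the controls and 7534, 6890.1 and 7355 with dexamethasone, a log2 fold change of -0.28 (adjusted p = 4.18e-07, limma). Rara, the widely expressed isotype, held 4429, 4757 and 4654 in the controls and 4209, 3793 and 3895 with dexamethasone, with a log2 fold change of -0.22 (adjusted p = 6.3e-05, limma). In both genes the groups were separate, for Rara by less than the range within either group. The ratio of Rara to Rarg per length was 0.510 ± 0.00689 in the controls and 0.533 ± 0.0146 with dexamethasone (SD, n = 3), which overlapped and did not pass an exact permutation test (p = 0.2).

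Rxra, the main partner receptor of the family, held 11321, 12496 and 11248 normalized counts in the controls and 10242, 9271 and 9378 with dexamethasone. Its log2 fold change of -0.28 (adjusted p = 3.17e-06, limma) was close to those of Rara and Rarg. Rxrb held 3534, 3694 and 3786 in the controls and 3945, 3713 and 3883 with dexamethasone, which overlapped, with a log2 fold change of 0.07 and a 95% confidence interval of -0.02 to 0.15. That sign was not stable, since it turned to -0.05 when the libraries were scaled to the same total and to -0.08 with quantile normalization. The Rxra to Rxrb ratio per length was 2.32 ± 0.150 in the controls and 1.82 ± 0.0658 with dexamethasone (SD, n = 3).

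Rarb, the isotype whose own promoter carries a retinoic acid response element, was barely expressed. It had 10, 8 and 17 reads in the controls and 11, 7 and 11 with dexamethasone, and its log2 fold change of -0.02 had a 95% confidence interval of -0.88 to 0.83, so differences of up to nearly 2-fold in either direction lay inside the interval at this depth. In the annotation 34.1% of its exon bases overlap Top2b on the opposite strand, which had a mean of 13649 normalized counts in the controls, so even its few reads are uncertain. Its element is shown with that of Cyp26a1, the best known target of the retinoic acid receptors, because these genes read out the pathway. Both sequences come from RefSeq (GRCm38.p6), the first being chr14:16575507-16575535 on the minus strand and the second chr19:37697558-37697797 on the plus strand. The bases shown for Rarb lie in annotated exons of GENCODE M21. The capitals mark 2 half-sites with 5 bases between them, read on the shown strand in Rarb (first base at position -53 from the start) and on the other strand in Cyp26a1 (first base at position -32).

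Rarb: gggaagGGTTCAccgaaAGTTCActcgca

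Cyp26a1: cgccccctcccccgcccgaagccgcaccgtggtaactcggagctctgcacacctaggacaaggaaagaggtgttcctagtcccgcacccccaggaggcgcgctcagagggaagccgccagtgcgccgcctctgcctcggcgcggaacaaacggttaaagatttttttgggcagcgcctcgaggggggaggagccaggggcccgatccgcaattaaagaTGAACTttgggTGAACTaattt

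The repeat of Rarb, GGTTCA and AGTTCA with 5 bases between them on either strand, stood in 2 of the 32851 promoter windows (0.00609%) and in no other member. The repeat of Cyp26a1, AGTTCA on both sides of the same spacing, stood in 7 (0.0213%), and AGGTCA on both sides in 3 (0.00913%), none of them a member. Half-sites inside these repeats also count among the single half-sites given above for Vdr.

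The genes that make, bind and break down retinoic acid differed far more than the receptors. Of 16 retinoid handling genes 14 had values and 11 were tested, with 1 called higher and 5 called lower. The median log2 fold change of the 11 was -0.48, against 0.00 over all tested genes. Dhrs9, a short-chain dehydrogenase that acts on retinol, held 361, 411 and 389 normalized counts in the controls and 6979.7, 7152 and 6598 with dexamethasone. That was a 17.9-fold higher level, with a log2 fold change of 4.16 (adjusted p = 3.38e-27, limma).

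Cyp26b1, which inactivates retinoic acid, went the opposite way. Its libraries held 2644, 2584 and 2643 normalized counts in the controls and 184, 164 and 192 with dexamethasone, a 14.6-fold lower level and a log2 fold change of -3.86 (adjusted p = 1.1e-24, limma). Crabp2, which carries retinoic acid to its receptors in the nucleus, held 1203, 1108 and 1101 in the controls and 199, 178 and 177 with dexamethasone, with a log2 fold change of -2.62 (adjusted p = 5.36e-20, limma). The other 3 genes called lower, which are named after their values were seen, were Dhrs3, which turns retinaldehyde back to retinol, and the catabolic enzymes Cyp26a1 and Cyp26c1. Cyp26a1 had 93, 83 and 85 reads in the controls and 26, 23 and 17 with dexamethasone, and a log2 fold change of -1.76 (adjusted p = 7.45e-08, limma). Dhrs3 fell by 1.81 and Cyp26c1 by 1.33 on the log2 scale. All 3 tested Cyp26 enzymes were thus called lower beside receptors that stayed within 1.22-fold of their control levels.

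**Figure D3:**
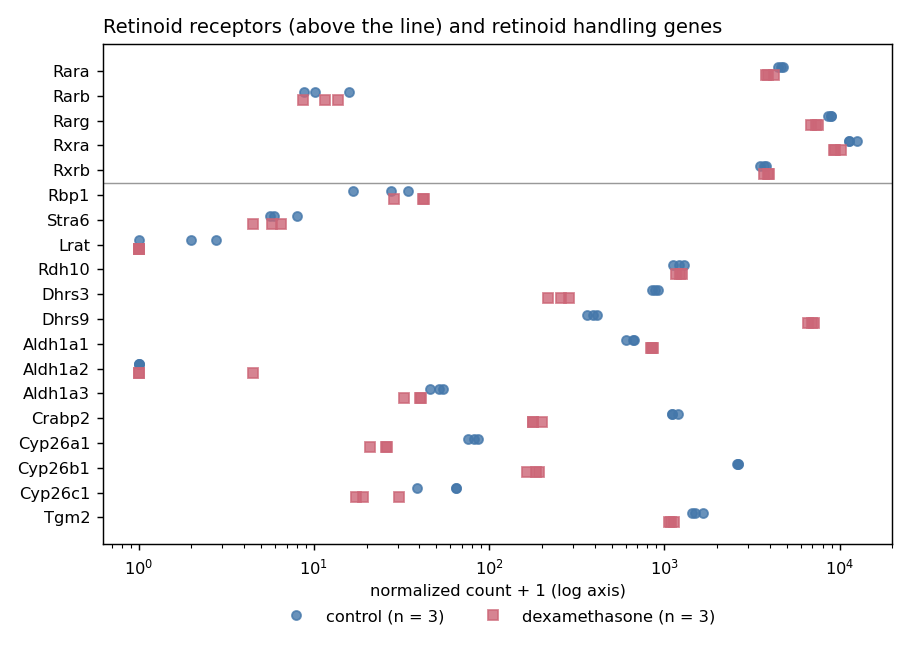
Normalized counts plus 1 (log axis) of the 5 retinoid receptors and 14 retinoid handling genes in the 3 control (circles) and 3 dexamethasone (squares) libraries. Circles and squares lie close together for the receptors above the line, while Dhrs9 squares lie far to the right and those of Crabp2 and Cyp26b1 far to the left.

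Among the lipid-sensing receptors, Nr1h3 (LXR alpha), which senses oxysterols and is known from liver and macrophages, had few reads and fell. It had 48, 42 and 56 reads in the controls and 21, 9 and 17 with dexamethasone, which is 44.1, 41.1 and 49.2 normalized counts in the controls and 20.0, 9.81 and 19.8 with dexamethasone. Dexamethasone replicate 2 was the lowest, but all 3 dexamethasone libraries were under every control. The log2 fold change was -1.44 with a wide 95% confidence interval of -2.05 to -0.84 (adjusted p = 0.000101, limma). The call was not made with a minimum of 10 normalized counts in every library or a mean of at least 100, which Nr1h3 did not reach.

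Nr1h2 (LXR beta), the widely expressed isotype, held 4229.5, 4632 and 4419 normalized counts in the controls and 3815, 3522 and 3816 with dexamethasone. It fell by 0.25 on the log2 scale (adjusted p = 1.09e-05, limma). Per length Nr1h2 exceeded Nr1h3 in every library, 74.6 ± 8.89 times in the controls and 186 ± 72.4 times with dexamethasone (SD, n = 3), a ratio that rests on 9 to 56 reads of Nr1h3 per library.

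The 9 LXR target genes included 8 that were tested, of which 4 rose, 4 fell and 1 was called, with a median log2 fold change of 0.04. Smpdl3a, a phosphodiesterase induced by LXR in macrophages, held 521, 473 and 509.7 normalized counts in the controls and 49.6, 52.3 and 69.8 with dexamethasone, without overlap. It fell by 3.12 on the log2 scale (adjusted p = 6.19e-17, limma). The fatty acid desaturase Scd1 rose with a log2 fold change of 0.66 (adjusted p = 3.01e-13, limma), while Scd2, the most abundant of the list, was at -0.12 (adjusted p = 0.0291, limma), a difference that did not pass without control replicate 2 (adjusted p = 0.222, the highest of the alternatives), without dexamethasone replicate 2 (adjusted p = 0.178), in limma without the trend (adjusted p = 0.151) or with the replicate block (adjusted p = 0.0985). The 8 tested targets did not share a direction.

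Ppard, the widely expressed fatty acid receptor, held 3647, 3914 and 3916 normalized counts in the controls and 4601, 4079 and 4323 with dexamethasone. The highest control lay below the lowest dexamethasone value, and the log2 fold change was 0.18 (adjusted p = 0.000848, limma). Of the 22 members with an adjusted p under 0.05 it was the only one that lost it in an alternative, at a log2 fold change of 0.06 with libraries scaled to the same total (adjusted p = 0.101) and 0.01 with quantile normalization (adjusted p = 0.752), over a range of adjusted p from 5.82e-05 to 0.752. Ppara, the isotype of liver and muscle, had 1, 1 and 0 reads in the controls and 1, 0 and 1 with dexamethasone.

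Of 10 genes that PPARs are known to induce, 8 were tested, with 2 that rose, 5 that fell and a median log2 fold change of -0.40. The 2 that rose were Pdk4 and Plin2, with log2 fold changes of 0.63 and 0.60 (adjusted p = 2.96e-13 and 1.56e-12, limma). Fabp3, a fatty acid binding protein, was the called gene of the list at -1.60 (adjusted p = 0.000324, limma), from 42, 36 and 33 reads in the controls and 19, 5 and 10 with dexamethasone. Cpt1a, the gate of mitochondrial fatty acid uptake, held 13060.3, 14388 and 13313 normalized counts in the controls and 11838, 10555 and 11346 with dexamethasone, and fell with a log2 fold change of -0.27 (adjusted p = 3.42e-06, limma).

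Rora, a receptor that competes with Nr1d1 and Nr1d2 at circadian promoters, fell to 58.3% of control. Its libraries held 6111, 6325 and 6382 normalized counts in the controls and 3751, 3757 and 3460.4 with dexamethasone, and the log2 fold change was -0.78 (95% confidence interval -0.86 to -0.70, adjusted p = 5.04e-15, limma). Its opponent Nr1d2 rose with a log2 fold change of 0.45 (adjusted p = 6.74e-11, limma), next to Nr1d1 given above with Thra. Rorb had 4, 0 and 6 reads in the controls and 7, 6 and 6 with dexamethasone, too few to be tested.

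Both estrogen receptors fell, and the scarcer by normalized count, Esr2 (ER beta), fell further. Esr2 held 264, 228 and 251 normalized counts in the controls and 92.5, 92.7 and 108 with dexamethasone, with no overlap. Its log2 fold change was -1.33 (95% confidence interval -1.59 to -1.08, adjusted p = 5.03e-10, limma). Esr1 (ER alpha), the receptor through which estrogen chiefly preserves bone, held 789.5, 767 and 733 in the controls and 487, 451 and 457 with dexamethasone, with a log2 fold change of -0.71 (95% confidence interval -0.85 to -0.58, adjusted p = 7.4e-10, limma), short of 2-fold. On the RPKM scale both were low, Esr1 at 0.719 ± 0.0352 in the controls and 0.405 ± 0.0103 with dexamethasone and Esr2 at 0.948 ± 0.0897 and 0.345 ± 0.0314 (SD, n = 3). The ratio of Esr1 to Esr2 per length was under 1 in all 3 controls, at 0.762 ± 0.0595, and over 1 in all 3 dexamethasone libraries, at 1.18 ± 0.130 (SD, n = 3, exact permutation p = 0.1, the smallest possible). Which of the 2 led depends on the joined exon lengths, 13661 bases for Esr1 and 3368 for Esr2. By normalized count Esr1 led in every library.

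Pgr, the progesterone receptor and an estrogen target in reproductive tissue, had 0, 2 and 0 reads in the controls and 0, 0 and 2 with dexamethasone. It was at or under 3 reads in every library, which is the limit that a count of 0 allows for counting error only.

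Genes of the estrogen and progesterone pathway held the largest log2 fold changes of the pathway lists. Of 10 genes 7 were tested, with 3 that rose and 3 that fell, and 1 called higher and 2 called lower. Greb1, a classic estrogen-induced gene, had 18, 25 and 24 reads in the controls and 1045, 992 and 797 with dexamethasone, a 48.4-fold higher level in normalized counts (log2 fold change 5.54, adjusted p = 1.79e-21, limma). It rose in the libraries in which Esr1 and Esr2 fell. Wnt4, a signal that progesterone induces in breast and uterus, held 1535, 1703 and 1584 normalized counts in the controls and 88.7, 61.0 and 106 with dexamethasone, a log2 fold change of -4.26 (adjusted p = 5.55e-20, limma). Cyp1b1, which hydroxylates estradiol, went from 41565 ± 1349.6 to 4824 ± 42.2 normalized counts (SD, n = 3), a log2 fold change of -3.11 (adjusted p = 5.21e-28, limma). Pgrmc1, a membrane heme protein named for progesterone binding, fell by 0.54 on the log2 scale (adjusted p = 3.64e-13, limma).

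The estrogen-related receptors are orphan relatives that drive mitochondrial genes together with the PGC-1 coactivators. Esrra held 3781, 4044 and 3939 normalized counts in the controls and 3516, 3114 and 3231 with dexamethasone, and fell by 0.26 on the log2 scale (adjusted p = 1.53e-05, limma). Esrrb had 4, 9 and 3 reads in the controls and 0, 0 and 1 with dexamethasone. With no filter on low values it was called lower too, on those few reads, which made 5 members called lower. Esrrg had 4, 1 and 0 reads in the controls and 0, 2 and 0 with dexamethasone, so Esrra was the only one of the 3 at a level that could be tested.

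Of the 6 orphan receptors tested, 3 rose and 2 fell. Nr2f2 (COUP-TFII), known for venous identity in endothelium and for restraining osteoblast differentiation, had the largest rise of the 27 members. Its libraries held 4158, 4408 and 4452 normalized counts in the controls and 7656, 7095 and 6898 with dexamethasone, and every dexamethasone value was above every control. The log2 fold change was 0.73 (95% confidence interval 0.65 to 0.82, adjusted p = 4.1e-14, limma), a 1.66-fold higher level that did not reach the 2-fold limit. The noncoding B130024G19Rik lies opposite 7.46% of its exon bases and went from 113 ± 6.52 to 172 ± 22.1 normalized counts (SD, n = 3), a small part of the reads of Nr2f2.

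Nr2f1 (COUP-TFI), its nearest relative, held 1154, 1221 and 1227 normalized counts in the controls and 1309, 1264 and 1210.5 with dexamethasone, which overlapped. Its log2 fold change was 0.07 (95% confidence interval -0.04 to 0.18), and it turned to -0.04 with libraries scaled to the same total and to -0.03 with quantile normalization. The ratio of Nr2f1 to Nr2f2 per length was 0.469 ± 0.00174 in the controls and 0.296 ± 0.00622 with dexamethasone (SD, n = 3), so that Nr2f2 was the more abundant of the 2 in every library. Nr2f6, the third COUP-TF-like receptor, held 1422, 1526 and 1427 in the controls and 1947, 1792 and 1731 with dexamethasone, with a log2 fold change of 0.32 (adjusted p = 4.84e-06, limma). Of the Nr2f6 exon bases, 54.4% overlap Ocel1 on the opposite strand, whose log2 fold change was 0.14, so the Nr2f6 count is uncertain.

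The testicular receptors Nr2c1 (TR2) and Nr2c2 (TR4), which bind direct repeats and compete with other receptors, moved in opposite directions. Nr2c1 held 1978, 2055 and 2045 normalized counts in the controls and 1898, 1818 and 1743 with dexamethasone, and fell by 0.16 on the log2 scale (adjusted p = 0.00399, limma). Nr2c2 held 5344, 5448 and 5439 in the controls and 7731, 7543 and 7405 with dexamethasone, and rose with a log2 fold change of 0.48 (adjusted p = 6.74e-12, limma). Per length their ratio went from 1.21 ± 0.0124 to 0.780 ± 0.0165 (SD, n = 3), so that by this measure Nr2c1 led in all 3 controls and Nr2c2 in all 3 dexamethasone libraries. Which led depends on the joined exon lengths, 4607 bases for Nr2c1 and 14935 for Nr2c2. By normalized count Nr2c2 led in every library. Mrps25, a mitochondrial ribosomal gene opposite 30.7% of the Nr2c2 exon bases, rose too, with a log2 fold change of 0.64 (adjusted p = 3.56e-13, limma), and reads of the 2 genes cannot be told apart if strand was not used in counting.

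Nr6a1 (GCNF), an embryonic repressor, held 1078, 1062 and 1100.2 normalized counts in the controls and 896, 884 and 894 with dexamethasone, and fell by 0.28 on the log2 scale (adjusted p = 5.78e-05, limma). Its dexamethasone libraries lay close together and below every control. Nr5a2 (LRH-1), a receptor of liver and gut, had 3, 1 and 0 reads in the controls and 3, 0 and 0 with dexamethasone.

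Of the corepressors, Ncor1, which docks histone deacetylase 3 onto receptors without ligand, was the most abundant of the 34 members by RPKM with dexamethasone, at 21.5 ± 0.550, and the fourth in the controls, at 25.5 ± 0.398 (SD, n = 3). It held 25262, 25520.4 and 25308 normalized counts in the controls and 24121, 22840.5 and 22589 with dexamethasone, and fell by 0.13 on the log2 scale (adjusted p = 0.00234, limma). That is 91.4% of control, while Thra, Rxra and Rarg, which ranked above it in the controls, fell further. Nrip1 (RIP140), which represses metabolic genes on ligand-bound receptors, held 2822, 2787 and 2711 in the controls and 3467, 3296 and 3215 with dexamethasone, and rose with a log2 fold change of 0.26 (adjusted p = 3.83e-06, limma). The groups were separate in both genes.

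The 3 members of the p160 coactivator family, which bridge receptors to histone acetyltransferases, differed from each other. Ncoa1 (SRC-1) held 3491, 3742 and 3727 normalized counts in the controls and 2718, 2601 and 2655 with dexamethasone, a fall to 72.7% of control (log2 fold change -0.46, adjusted p = 3.26e-10, limma). Ncoa3 (SRC-3), which is amplified in some breast cancers, held 5030.1, 5167 and 5011 in the controls and 6619, 6229.5 and 6380.2 with dexamethasone, a rise to 126% of control (log2 fold change 0.34, adjusted p = 1.03e-08, limma). Ncoa2 (SRC-2), a coactivator and corepressor of the glucocorticoid receptor, held 9641, 10239 and 9764 in the controls and 10761, 9967 and 9923 with dexamethasone. Its groups overlapped and its log2 fold change was 0.05 (95% confidence interval -0.03 to 0.13). The sign depended on the scaling, with -0.07 for libraries scaled to the same total (adjusted p = 0.0450, limma) and -0.14 with quantile normalization (adjusted p = 0.000121), over a range of adjusted p from 0.000121 to 0.812.

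The balance of Ncoa1 to Ncoa3 per length was 0.639, 0.667 and 0.685 in control replicates 1, 2 and 3 and 0.378, 0.384 and 0.383 with dexamethasone. The groups did not overlap. Of the 8 ratios, 7 gave an exact permutation p = 0.1 (adjusted p = 0.114), the smallest that 3 against 3 libraries allow, and Rara to Rarg gave p = 0.2. Ncoa3 overlaps Sulf2 on the opposite strand over 1.95% of its exon bases, and Sulf2, with a mean of 62717 normalized counts in the controls, fell by 1.20 on the log2 scale, the direction opposite to that of Ncoa3.

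**Figure D4:**
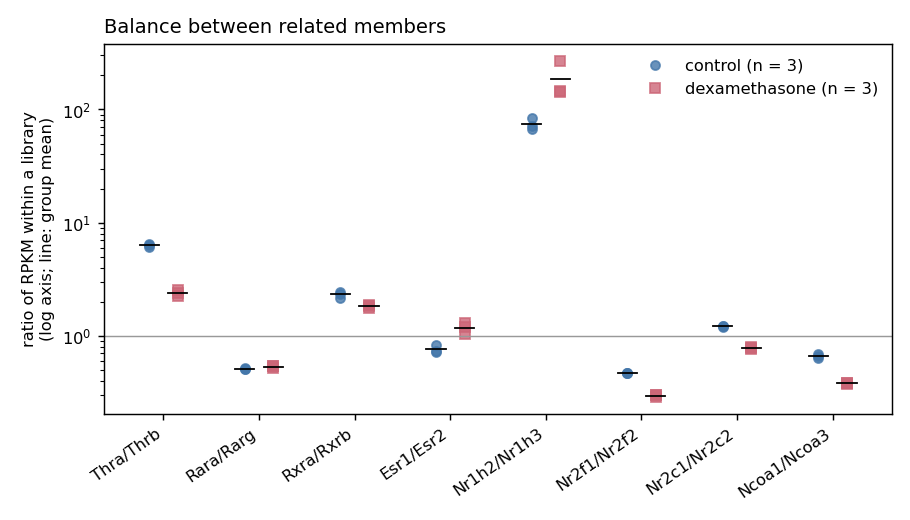
Ratio of RPKM between related members within each library (log axis), for 8 pairs, with 3 control (circles) and 3 dexamethasone (squares) libraries and a line at each group mean. Thra/Thrb went from 6.33 to 2.39, Esr1/Esr2 and Nr2c1/Nr2c2 crossed 1 in opposite directions, and Rara/Rarg at 0.510 and 0.533 overlapped. Whether a ratio lies over or under 1 depends on the exon lengths used.

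Ppargc1b (PGC-1 beta), a coactivator of the estrogen-related receptors for mitochondrial genes, had the largest rise of the coregulators tested. It held 255, 257 and 298 normalized counts in the controls and 419, 359.7 and 387 with dexamethasone, without overlap, and its log2 fold change was 0.52 (95% confidence interval 0.33 to 0.71, adjusted p = 1.77e-05, limma). Ppargc1a (PGC-1 alpha), the inducible isoform of muscle and brown fat, had 2, 5 and 6 reads in the controls and 1, 0 and 2 with dexamethasone, too few to be tested.

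Of 10 known PGC-1 and ERR target genes, 7 rose and 3 fell, with a median log2 fold change of 0.34, and none reached 2-fold. The most abundant, Cs, which encodes citrate synthase, held 25154, 26546 and 24739 normalized counts in the controls and 30989, 29623 and 30253 with dexamethasone, a log2 fold change of 0.25 (adjusted p = 1.76e-06, limma). Gabpa, a transcription factor of respiratory chain genes, rose with a log2 fold change of 0.52 (adjusted p = 9.9e-13, limma). The 3 genes that fell were Tfb1m, Sirt3 and Sod2, with log2 fold changes of -0.35, -0.28 and -0.21. By the same measure 37.2% of all tested genes rose and 35.2% fell. The 7 rises came in libraries in which Ppargc1b was higher, Esrra was lower and all 8 proliferation markers were higher. The part of each of these in the rises was not tested.

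The receptors of the family outside the 37 included the target of the drug. Of 18 such genes 17 had values and 10 were tested, with 3 that rose, 5 that fell and 2 called lower, and a median log2 fold change of -0.27. Nr3c1, the glucocorticoid receptor, held 19449, 20679 and 20284 normalized counts in the controls and 10746, 10720.4 and 10355 with dexamethasone, 52.7% of control. Its log2 fold change of -0.92 (adjusted p = 1.46e-17, limma) was short of 2-fold, and passed it with libraries scaled to the same total and with quantile normalization, in a range from -1.12 to -0.91 over the alternatives. Nr3c2, the mineralocorticoid receptor, which also binds glucocorticoids, held 287, 307 and 324 in the controls and 132, 148 and 139.5 with dexamethasone, a log2 fold change of -1.13 (adjusted p = 7.46e-10, limma). Nr4a3, an immediate early orphan receptor, held 268, 267 and 297 in the controls and 95.4, 189.7 and 80.2 with dexamethasone, with dexamethasone replicate 2 above the other two but under every control, and fell by 1.28 on the log2 scale (adjusted p = 1.81e-06, limma), or by 1.65 without that library.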

How the data were processed

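Bone cells of C57BL/6 mice (C57BL/6J in the study's methods) were profiled by RNA sequencing in 3 control and 3 dexamethasone libraries, made with a strand-marking poly(A) kit. Per the labels and the study's methods, the authors aligned and counted reads with STAR (2.7.10a) and normalized with DESeq2 (1.36.0), and the submitters' processing notes name the build GRCm39. Which annotation was used and whether strand was used in counting is not given in the sources used here. The deposited values are a signal, namely read counts that the authors divided by a size factor per library. Whole reads were recovered for 100% of values (tolerance 0.01 reads), 72596611 to 89910728 per library, and limits drawn from counts cover counting error only.

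Symbols, exon lengths and overlaps were taken from GENCODE M21, in which 28087 of 29616 identifiers had a symbol, and promoter sequences from RefSeq (GRCm38.p6, 250 bases before each start). No coordinates were transferred between builds. RefSeq promoter entries were found for 33 of the 37 members, and annotated exon bases were left out of the sequences printed for Vdr and Cyp26a1. All 250 bases of the Rarb window lie in annotated exons, so only its site and a few bases beside it were printed. The 17442 genes whose mean reached 10 normalized counts were tested with limma (3.58.1, trend) on log2(normalized count + 1), with Benjamini-Hochberg adjustment over all of them. Fold changes on this scale understate those of genes with few reads. Calls needed an adjusted p under 0.05 and an absolute log2 fold change of at least 1, the cut-offs of the study. Tested on simulated data for this comparison (17234 genes, 192 changed), limma recovered 192 and called 3 unchanged genes. It gave 14 unchanged genes an adjusted p under 0.05, the measure used for rose and fell. In the real data 12645 of the 17442 tested genes had an adjusted p under 0.05. How limma performs with so large a share of differing genes was not tested. RPKM was computed from recovered reads and from the joined length of all annotated exons of a gene. Alternatives used other pseudocounts (0.5 and 5), filters, scalings, edgeR (4.0.16) or DESeq2 (1.42.0) on the recovered reads, a replicate block, and left out each library in turn.

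The members, gene lists and markers were chosen with earlier results of these data known. All members were named, and of each list the called genes with the 3 largest absolute log2 fold changes and the 2 tested genes with the highest mean, plus genes that overlap a member, except 2 genes that are not reported here. The 8 ratios of related members, and Dhrs3, Cyp26a1 and Cyp26c1 outside that rule, were picked after values were seen. So were Dio3, Pdk4, Plin2, Tfb1m, Sirt3 and Sod2, which are also outside it.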

Additional observations from a re-analysis of the deposited data

How the results depend on the processing

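The counts of members called (4 lower, 0 higher) kept their direction under all 18 alternatives, with 3 to 5 called lower, and 21 to 24 members at an adjusted p under 0.05. Of the 27 members, 471 of 482 values kept their sign and call. The other 11 changed sign, in 5 members that did not pass the test, although Rxrb, Thrb and Ncoa2 did so with the sign turned under quantile normalization and Ncoa2 with the same total. Rarb was at 0.0546 with quantile normalization and ran from -0.20 to 0.23 when single libraries were left out. With libraries scaled to the same total and with quantile normalization, Rxrb was at -0.0465 and -0.0834, Thrb at -0.0579 and -0.0985, Nr2f1 at -0.0432 and -0.0317, and Ncoa2 at -0.0664 and -0.138. Of the 429 values of the list genes named by the rule above, 422 kept their sign and call. The number of all genes called was 3894, and 2170 with a mean of at least 100, 12645 without the fold limit, and 3878 to 3910 without single libraries. Of these calls 52.3% were higher with dexamethasone, 62.2% with a mean of at least 100, 49.4% without a filter on low values and 45.1% with libraries scaled to the same total. The replicate block gave 3897 genes and 4 members called lower. Deviations of same-numbered libraries correlated at -0.10, -0.10 and -0.02, so no shared deviation by replicate number was seen. Such a correlation cannot show that the libraries were not paired, and whether they were is not given in the sources used here. Depth limits the 7 members under the filter, and 3 libraries per group limit every ratio to an exact p of 0.1. Rarb and Nr1h3 gave no value with the 2 stricter filters.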

Other observations

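The other coregulators of the receptors moved little, like the 6 tested members. All 18 were tested, 11 rose and 4 fell at an adjusted p under 0.05 in limma, and none reached 2-fold in either direction, with a median log2 fold change of 0.11. Tbl1x, an exchange factor of the corepressor complex, held 16286, 16719 and 16627 normalized counts in the controls and 16227, 15391 and 15602 with dexamethasone, without overlap, at a log2 fold change of -0.07 (adjusted p = 0.0667, limma), or -0.09 without dexamethasone replicate 1 (adjusted p = 0.0104, in a range from 1.75e-09 to 0.211 over the alternatives).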
